A study of Mus musculus with 9 samples.

Results

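The ileal stem cell niche of young SAMP mice was set against that of adult AKR mice, 2 groups described as free of inflammation. The 3 libraries of SAMP/YitFc mice aged 5 weeks (SAMP 5 wk) and the 3 libraries of AKR mice aged 25 weeks (AKR 25 wk) were taken from the 9 libraries of the series by the strain and age in the labels. All mice carried the genotype wild type in the labels, and each library was called a biological replicate. SAMP is a strain that develops a spontaneous ileitis resembling Crohn's disease, and AKR is its parental control strain. The third group of the series, inflamed SAMP mice aged 25 weeks (SAMP 25 wk), was used only for values set side by side. The tissue was the base of the crypt, cut out by laser microdissection, and its RNA was sequenced and given as FPKM, fragments scaled to transcript length and library size. Because SAMP 5 wk and AKR 25 wk differed in strain and in age together, the parts of strain and age in any difference cannot be told apart.

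The crypt base holds the cycling intestinal stem cells, marked by Lgr5 and Olfm4, wedged between Paneth cells. Paneth cells feed the stem cells with niche signals and secrete antimicrobial proteins, above all lysozyme and the alpha-defensins (cryptdins), small cationic peptides encoded by a cluster of many near-identical genes. Goblet, enteroendocrine and tuft cells arise from the same crypts, and absorptive enterocytes mature as they move up onto the villus. In the bulk RNA of captured tissue, fewer cells of a type and less RNA of a gene per cell cannot be told apart.

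The markers of the labelled tissue were present in all 6 libraries: Lgr5 was between 17.4 and 23.4 FPKM in SAMP 5 wk and between 11.2 and 20.0 FPKM in AKR 25 wk, and Lyz1, the lysozyme of Paneth cells, was above 15000 FPKM in every library. Depth, estimated from the values, ranged between 6980000 and 10220000 reads, which leaves few reads for a gene near 1 FPKM. The library of AKR 25 wk replicate 2 stood apart. Genes of villus enterocytes summed to 20150 FPKM in it, against 1576 and 1146 FPKM in the other AKR 25 wk libraries and 859.0 to 2364 FPKM in SAMP 5 wk. Across genes, its log2(FPKM + 1) had a Pearson's r of 0.925 and 0.911 with AKR 25 wk replicates 1 and 3, while the SAMP 5 wk libraries had 0.958 to 0.968 among themselves. The comparison was therefore also made without that library. No call with all 6 libraries changed its direction there, as must be so for groups that do not overlap. Xist was at 1.32 FPKM or lower and the Y-linked gene Eif2s3y at 14.5 FPKM or higher in all 6. In SAMP 25 wk, Xist was at 0.53, 0.32 and 176.75 FPKM, so replicate 3 of that group differed from the others in this marker of sex.

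Of 11788 genes with a mean of at least 1 FPKM over the 6 libraries, 60 differed at an adjusted p below 0.05 in limma's moderated test on log2(FPKM + 1), 28 higher and 32 lower in SAMP 5 wk, that is 0.509% of the genes tested (0.238% higher and 0.271% lower). Without AKR 25 wk replicate 2 the count was 54, or 0.458%, with 25 higher and 29 lower (0.212% and 0.246%). Between the fits, 45 genes were called in both, 15 only with all 6 libraries and 9 only without that library. All 60 had groups that did not overlap, as had 14.5% of all genes tested (6.16% higher and 8.36% lower), and 59 differed by more than 1 on the log2 scale. Without that library, where groups of 3 and 2 are separate more easily, 25.2% of all genes did not overlap (10.3% higher and 14.8% lower). Over all genes tested, the log2 fold change had a median of -0.03, and of -0.02 without AKR 25 wk replicate 2. Alpha-defensin genes made up 12 of the 60, and 6 further calls were abundant rows of the table that the annotation used gives no name. Another 35 were named genes of other kinds, most of which are described below by the cells or pathways they belong to, and the rest were predicted gene models and 1 further row without a name. Leaving out each library in turn gave 31 to 54 calls, with 31 without AKR 25 wk replicate 1, 32 without SAMP 5 wk replicate 2 and 34 without SAMP 5 wk replicate 3. Of the 60 calls, 26 held whichever library was left out.

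The coding sequences of 5 of the called alpha-defensin genes are printed because the values of these near-identical copies went in opposite directions. All lie on the plus strand of chromosome 8 of GRCm38, where the 26 named alpha-defensin rows with FPKM values span chr8:21025545-21735471. Defa2 (chr8:21378517-21379495), Defa33 (chr8:21391811-21392792) and Defa20 (chr8:21509258-21510237) have coding sequences of 285 bases, given here without the stop codon, with the only position at which any of the set differs in capitals:
Defa2: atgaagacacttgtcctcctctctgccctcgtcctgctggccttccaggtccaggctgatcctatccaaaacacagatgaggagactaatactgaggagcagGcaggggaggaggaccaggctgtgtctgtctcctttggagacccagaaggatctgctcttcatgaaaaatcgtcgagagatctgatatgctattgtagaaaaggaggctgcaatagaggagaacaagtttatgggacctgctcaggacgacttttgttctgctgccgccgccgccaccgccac
Defa33: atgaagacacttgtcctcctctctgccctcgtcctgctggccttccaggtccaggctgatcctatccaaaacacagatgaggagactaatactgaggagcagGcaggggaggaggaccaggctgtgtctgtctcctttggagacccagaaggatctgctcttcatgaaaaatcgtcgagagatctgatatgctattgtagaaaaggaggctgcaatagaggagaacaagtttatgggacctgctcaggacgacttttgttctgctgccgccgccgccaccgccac
Defa20: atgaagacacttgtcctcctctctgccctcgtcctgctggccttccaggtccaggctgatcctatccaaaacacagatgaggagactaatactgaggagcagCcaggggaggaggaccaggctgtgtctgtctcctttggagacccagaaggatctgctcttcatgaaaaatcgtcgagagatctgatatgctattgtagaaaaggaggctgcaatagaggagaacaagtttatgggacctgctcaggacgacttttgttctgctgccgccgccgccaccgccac
The sequences of Defa2 and Defa33 were identical, and Defa20 differed from Defa2 by G103C alone (positions counted from 1 at the first coding base, Defa2's base first). Defa35 (chr8:21065038-21066001) and Defa37 (chr8:21565386-21566350) have coding sequences of 279 bases that differed by T44A, T168A and A177T, with Defa35's base first and the differing bases in capitals:
Defa35: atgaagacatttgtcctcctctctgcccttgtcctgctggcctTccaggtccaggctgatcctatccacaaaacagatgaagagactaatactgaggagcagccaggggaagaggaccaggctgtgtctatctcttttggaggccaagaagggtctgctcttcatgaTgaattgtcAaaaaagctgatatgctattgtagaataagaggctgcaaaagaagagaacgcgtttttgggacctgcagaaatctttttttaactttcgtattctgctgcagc
Defa37: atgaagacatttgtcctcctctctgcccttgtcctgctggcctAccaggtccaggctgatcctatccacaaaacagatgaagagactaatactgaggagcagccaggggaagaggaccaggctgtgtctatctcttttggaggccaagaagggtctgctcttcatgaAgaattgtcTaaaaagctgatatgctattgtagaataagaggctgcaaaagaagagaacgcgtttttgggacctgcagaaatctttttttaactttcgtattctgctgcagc
Of 18 tested alpha-defensin genes with a coding sequence, 15 were at least 95% identical to their most similar gene, with a median of 98.9%. A fold change of the opposite sign to that gene was seen in 9 of the 18. These 9 count both members of some pairs and take in uncalled changes, such as that of Defa17 (0.59, limma adjusted p 0.73). Both genes were called only for Defa2 with Defa33 and for Defa35 with Defa37. How the authors' counting divided reads among such copies was not given in the sources used here, so the value of any single copy is uncertain.

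Of 23 alpha-defensin genes tested, 2 rose and 10 fell in SAMP 5 wk (2 and 11 without AKR 25 wk replicate 2), a median log2 fold change of -1.34 (-1.61 without that library) beside -0.03 for all genes. Among all genes tested, 0.238% were called higher and 0.271% lower. Defa2 was at 4514, 3231 and 3258 FPKM in SAMP 5 wk and 51.0, 59.25 and 58.1 FPKM in AKR 25 wk. Its 3 SAMP 5 wk libraries lay far above all AKR 25 wk libraries, a log2 fold change of 5.99 ± 0.21 (SE) with a limma adjusted p of 9.9e-07. Defa35 was at 5534, 3995 and 4412 FPKM in SAMP 5 wk and 129, 77.3 and 175 FPKM in AKR 25 wk (log2 fold change 5.25 ± 0.31). For each of them, a most similar copy ran the other way. Defa5, as similar to Defa35 as Defa37 was (98.9%, 3 positions differing), did not. It had a log2 fold change of 0.50 with overlapping groups (limma adjusted p 0.76). Defa33, with the coding sequence of Defa2, was at 83.7, 56.7 and 0 FPKM in SAMP 5 wk and 13258, 7816 and 17920.3 FPKM in AKR 25 wk. Its log2 fold change was -9.50 ± 1.40 with a limma adjusted p of 0.026. That call was lost in 6 of the 21 alternatives run, among them leaving out SAMP 5 wk replicate 2, AKR 25 wk replicate 1 or AKR 25 wk replicate 3 (adjusted p 0.056, 0.11 and 0.076, over a range of 0.00015 to 0.31 for all alternatives). Defa20, a base away from Defa2, was at 301, 247 and 178 FPKM in SAMP 5 wk and 18091, 10397 and 24432 FPKM in AKR 25 wk. Every SAMP 5 wk library was under every AKR 25 wk library, with a log2 fold change of -6.13 ± 0.36. Defa37, at 1593, 1044 and 1264 FPKM in SAMP 5 wk and 9063, 4576 and 11541 FPKM in AKR 25 wk, fell by 2.61 ± 0.38 on the log2 scale. Defa38 fell by 5.76 ± 0.34 and Defa22 by 5.56 ± 0.37. Leaving out AKR 25 wk replicate 2 gave 6.03 for Defa2, 4.93 for Defa35, -9.83 for Defa33 and -6.47 for Defa20, all of them called. Defa38 had -6.16 and Defa22 -5.93 there, and Defa37 kept its call (adjusted p 0.0033).

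SAMP 5 wk replicate 3 held the lowest values of several of the copies that fell. Defa21 was at 82.0, 61.6 and 1.52 FPKM in SAMP 5 wk and 13158, 6654 and 16344 FPKM in AKR 25 wk. Defa42 was at 160, 118 and 6.19 FPKM in SAMP 5 wk and 21841, 11860 and 28136 FPKM in AKR 25 wk. Defa3 was at 4.86, 10.1 and 0 FPKM in SAMP 5 wk and 1407, 853 and 1817 FPKM in AKR 25 wk. The fold changes of these 3 genes, -8.90, -8.55 and -8.34 on the log2 scale, and that of Defa33 rest in part on how near to 0 that library was listed, and no SAMP 5 wk library reached the AKR 25 wk range in any of them. The call of Defa21 was lost without AKR 25 wk replicate 1 (adjusted p 0.055, over a range of 0.00019 to 0.22). Without AKR 25 wk replicate 2 they were -9.28 for Defa21, -8.91 for Defa42 and -8.64 for Defa3. Smaller falls were those of Defa34 (-2.43 ± 0.33, and -2.79 without that library) and Defa39 (-2.27 ± 0.36, and -2.65). Along with Defa37, both were called neither without SAMP 5 wk replicate 2 or 3 nor without AKR 25 wk replicate 1 (limma adjusted p 0.067 to 0.19). Defa34 and Defa39 were also lost without SAMP 5 wk replicate 1 (adjusted p 0.067 and 0.13). Without AKR 25 wk replicate 3, Defa37 and Defa39 were lost (adjusted p 0.059 and 0.1). Members that did not pass were among the most abundant: Defa17 was at 15944, 11047 and 11951 FPKM in SAMP 5 wk and 9113, 5651 and 12016 FPKM in AKR 25 wk, with overlapping groups, and Defa31 had a log2 fold change of 1.56 with an adjusted p of 0.20.

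**Figure D1:**
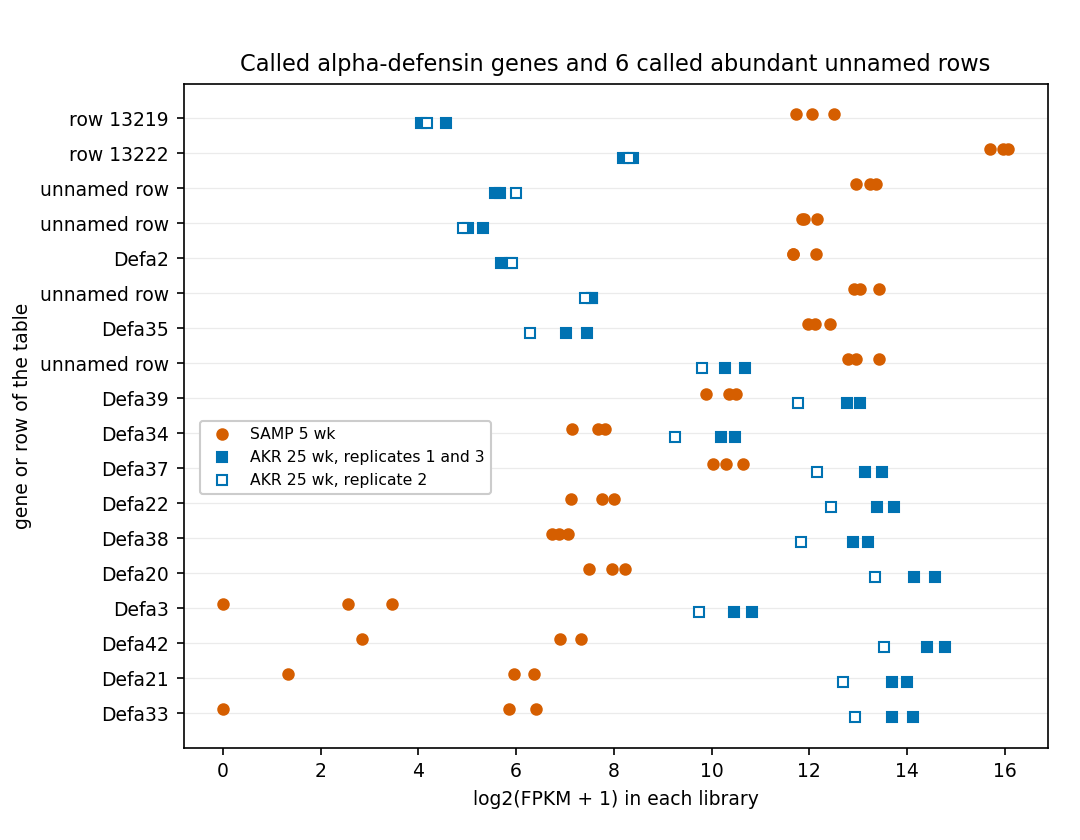
Log2(FPKM + 1) of the 12 called alpha-defensin genes and of 6 called abundant rows without a name in each of the 6 libraries, with SAMP 5 wk as circles and AKR 25 wk as squares (replicate 2 open). Everything from the row 13219 down to the unnamed row under Defa35 lies higher in all SAMP 5 wk libraries and everything from Defa39 to Defa33 lies lower, with no overlap in any row, and AKR 25 wk replicate 2 is the lowest AKR library in every one of the 10 genes that fell.

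Among the rows without a name were the largest rises of the comparison. The row with the NCBI gene number 13222 was at 64259, 68988 and 53191 FPKM in SAMP 5 wk and 292, 317 and 336 FPKM in AKR 25 wk, for a log2 fold change of 7.61 ± 0.27 with an adjusted p of 9.9e-07 in limma. The row 13219 was at 3384, 5847 and 4248 FPKM in SAMP 5 wk and 15.6, 17.1 and 22.7 FPKM in AKR 25 wk (7.83 ± 0.25). In SAMP 25 wk the row 13219 was at 28.1, 18.4 and 15.55 FPKM, the level of AKR 25 wk, so its high values were seen in SAMP 5 wk alone among the 3 groups. The fold changes without AKR 25 wk replicate 2 were 7.62 for the row 13222 and 7.79 for the row 13219. These rows have gene numbers close to those of named alpha-defensins, and no gene name is given to them here. Summed over the 6 called rows and 1 uncalled row of this kind, SAMP 5 wk held 103800, 103900 and 85540 FPKM and AKR 25 wk 1814, 1491 and 2282 FPKM. The 26 named alpha-defensin rows summed to 68580, 49180 and 54320 FPKM in SAMP 5 wk and 148000, 81750 and 193700 FPKM in AKR 25 wk, with groups that did not overlap. The sum of both sets was 172400, 153100 and 139900 FPKM in SAMP 5 wk and 149800, 83240 and 196000 FPKM in AKR 25 wk, and here the groups overlapped, with a ratio of means of 1.08 (0.897 without AKR 25 wk replicate 2).

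The division between a gene and its copy varied little within a strain, at both ages of SAMP, and most for Amd2 and Amd1. These 8 pairs were chosen after their values were seen, so the shares are a description, and the AKR libraries are the same beside both SAMP groups. Defa2 made up 98.2%, 98.3% and 100% of the FPKM of Defa2 and Defa33 in SAMP 5 wk, 99.2% in each SAMP 25 wk library and 0.383%, 0.752% and 0.323% in AKR 25 wk. Clca3a1 made up 76.6%, 78.0% and 76.5% of Clca3a1 and Clca3a2 in SAMP 5 wk, 75.0% to 80.0% in SAMP 25 wk and 19%, 14.6% and 17.0% in AKR 25 wk. Such shares did not move with AKR 25 wk replicate 2, whose values lay beside those of the other AKR 25 wk libraries. Rpl37rt, a retrogene copy of the ribosomal protein gene Rpl37 on chromosome 5, made up 76.0%, 77.5% and 76.0% of the pair in SAMP 5 wk and 3.95%, 4.36% and 4.95% in AKR 25 wk. It was at 683, 392 and 443 FPKM in SAMP 5 wk and 17.1, 17.8 and 18.5 FPKM in AKR 25 wk, and rose by 4.71 ± 0.22, while Rpl37 had a log2 fold change of -1.35 that did not pass (adjusted p 0.069). Ubb-ps, a pseudogene of the ubiquitin gene Ubb, fell by 2.93 ± 0.17, at 30.5, 28.4 and 27.6 FPKM in SAMP 5 wk and 211, 267 and 206 FPKM in AKR 25 wk. Ubb held 91.5%, 91.1% and 91.5% of the pair in SAMP 5 wk and 51.6%, 49.7% and 50.7% in AKR 25 wk. Amd2, 99.9% identical in coding sequence to the polyamine synthesis gene Amd1, was at 4.47, 4.26 and 4.18 FPKM in SAMP 5 wk and 0, 0.18 and 0.36 FPKM in AKR 25 wk (2.18 ± 0.26), and was not called without SAMP 5 wk replicate 2 (adjusted p 0.055, over a range of 0.0013 to 0.055). Rpl37rt had 4.71, Ubb-ps -2.81 and Amd2 2.19 without AKR 25 wk replicate 2.

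**Figure D2:**
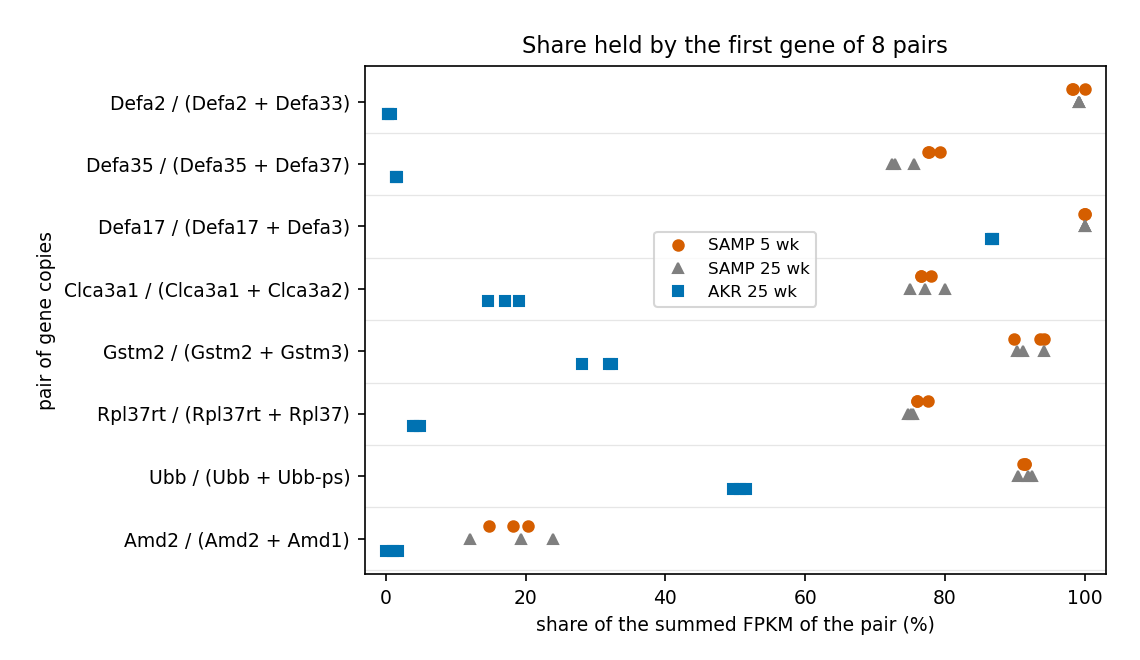
Share of the summed FPKM of a pair of gene copies held by the first gene, in percent, in each library of SAMP 5 wk (circles), SAMP 25 wk (triangles) and AKR 25 wk (squares). In every pair the SAMP 5 wk points lie beside those of SAMP 25 wk and apart from those of AKR 25 wk, with Defa2 at 98.2% or more against 0.752% or less.

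Outside the defensins, the Paneth cell gene that differed was Mptx2, which encodes a mucosal pentraxin. It was at 3470, 2739 and 2467 FPKM in SAMP 5 wk and 239, 161 and 234 FPKM in AKR 25 wk, for a log2 fold change of 3.78 ± 0.24 with a limma adjusted p of 8.3e-05 (3.59 and 0.00016 without AKR 25 wk replicate 2). The call held under each of 21 alternatives, with adjusted p from 4.8e-06 to 0.0032. Mptx1, 91.9% identical to it in coding sequence, was at 654, 313 and 343 FPKM in SAMP 5 wk and 487, 257 and 517 FPKM in AKR 25 wk, with overlapping groups. Of 23 Paneth cell genes other than defensins 1 rose and 0 fell in both fits, with a median of 0.06 (-0.05 without AKR 25 wk replicate 2). Among all genes tested, 0.238% were called higher and 0.271% lower with all 6 libraries. Lyz1 was at 25857, 24396 and 20238 FPKM in SAMP 5 wk and 26581, 15074 and 36165 FPKM in AKR 25 wk, which overlap. The ribonuclease gene Ang4 (log2 fold change 0.85, adjusted p 0.62) and Mmp7, the protease that activates mouse alpha-defensins (0.82, adjusted p 0.33), did not pass. Summed over the 27 listed genes present in the table, the Paneth genes other than defensins were at 54480, 45480 and 42010 FPKM in SAMP 5 wk and 44830, 26520 and 58130 FPKM in AKR 25 wk.

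Calls among antimicrobial genes that epithelial cells raise under microbial stimulation turned on the library rich in enterocyte genes. Reg3b, a bactericidal lectin, was at 6100, 1703 and 5106 FPKM in SAMP 5 wk and 151, 6319 and 136 FPKM in AKR 25 wk, so that AKR 25 wk replicate 2 lay above all SAMP 5 wk libraries and the other AKR 25 wk libraries below them. Its log2 fold change was 2.88 ± 1.29 (limma adjusted p 0.60), and 4.70 without AKR 25 wk replicate 2 (adjusted p 0.0033). Reg3g, its neighbour on chromosome 6, was at 5826, 2264 and 5857 FPKM in SAMP 5 wk and 598, 6027 and 509 FPKM in AKR 25 wk (1.80, adjusted p 0.63, and 2.95, adjusted p 0.026, without that library). Dmbt1, a mucosal scavenger receptor, was at 1098, 807 and 1570 FPKM in SAMP 5 wk and 323, 592 and 249 FPKM in AKR 25 wk, with groups that did not overlap. It passed only without AKR 25 wk replicate 2 (1.62, adjusted p 0.15, and 1.97, adjusted p 0.035). The list of Reg and epithelial antimicrobial genes had 0 of 29 called by limma, with 5 at an unadjusted p under 0.05, and 3 higher without that library. Of its members, 17 of 29 lay below 0 and the median was -0.06, and with 9 below 0 and a median of 0.17 without that library. Groups were separate in 5 higher and 2 lower members of the 29, beside 6.16% higher and 8.36% lower of all genes tested. Among the lower was Nfkbia, an inhibitor of NF-kappaB (-0.38, limma adjusted p 0.69). Lcn2, which binds bacterial siderophores, had a log2 fold change of 1.79 (adjusted p 0.11). Of epithelial genes on other lists, the fucosyltransferase gene Fut2 had 2.08 (adjusted p 0.10). The pore-forming gasdermin C gene Gsdmc2 was at 173, 23.3 and 42.6 FPKM in SAMP 5 wk and 6.99, 7.84 and 6.37 FPKM in AKR 25 wk (2.82, adjusted p 0.11).

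**Figure D3:**
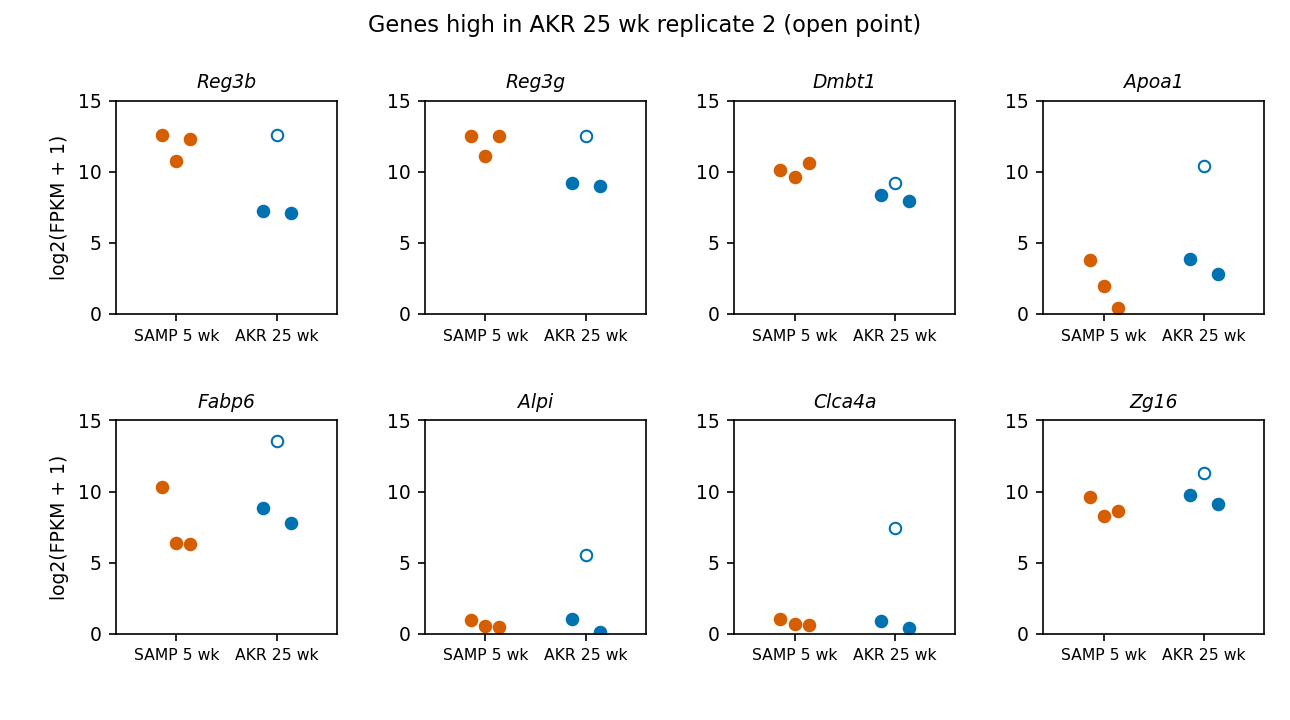
Log2(FPKM + 1) of 8 genes in the 3 SAMP 5 wk and 3 AKR 25 wk libraries, with AKR 25 wk replicate 2 as an open point. Reg3b and Reg3g were as high in that library as in SAMP 5 wk, and Apoa1, Fabp6, Alpi, Clca4a and Zg16 were higher in it than in the other 5 libraries.

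Of 30 goblet cell genes, 2 rose and 2 fell with all 6 libraries, and 2 rose and 2 fell without AKR 25 wk replicate 2. Among all genes tested, 0.238% were called higher and 0.271% lower with all 6 libraries. A fold change below 0 was seen in 21 of the 30, and the median was -0.185 (-0.218 without AKR 25 wk replicate 2). Retnlb, a secreted goblet cell protein with antibacterial activity that type 2 immunity induces, was at 228, 41.2 and 100.4 FPKM in SAMP 5 wk and 8.14, 4.75 and 7.71 FPKM in AKR 25 wk. Even its lowest SAMP 5 wk library was above all AKR 25 wk libraries, and the log2 fold change was 3.69 ± 0.52 with a limma adjusted p of 0.020 (3.48 and 0.043 without AKR 25 wk replicate 2). The call was lost in 4 of the 21 alternatives, including those without SAMP 5 wk replicate 3 or AKR 25 wk replicate 1 (adjusted p 0.099 and 0.067, over a range of 0.0023 to 0.10). Il13, a type 2 cytokine gene, was at 0 FPKM in all 6 libraries, and at 2.49, 3 and 0.83 FPKM in SAMP 25 wk, where Retnlb was at 734, 302.5 and 525 FPKM. Rep15, which encodes a Rab15 effector, rose by 1.10 ± 0.18, at 43.4, 34.9 and 32.6 FPKM in SAMP 5 wk and 16.0, 18.4 and 15.4 FPKM in AKR 25 wk (1.17 without AKR 25 wk replicate 2). This call was lost in 8 of the 21 alternatives, namely without any single library but AKR 25 wk replicate 2 and in 3 other settings. Muc2, the gel-forming mucin of goblet cells, had a log2 fold change of -0.66 that did not pass (adjusted p 0.47). The goblet cell genes summed to 11830, 6021 and 6789 FPKM in SAMP 5 wk and 8816, 11690 and 8735 FPKM in AKR 25 wk, so the groups overlapped.

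A cluster of chloride channel accessory genes on chromosome 3 held 3 of the calls. Clca3b was at 63.2, 56.2 and 55.4 FPKM in SAMP 5 wk and 694, 439 and 734 FPKM in AKR 25 wk, for a log2 fold change of -3.36 ± 0.23 with a limma adjusted p of 0.00011 that held under each of 21 alternatives (-3.60 without AKR 25 wk replicate 2). Its neighbours moved apart. Clca3a1 was at 26.7, 27.1 and 27.8 FPKM in SAMP 5 wk and 8.6, 3.82 and 8.45 FPKM in AKR 25 wk (1.89 ± 0.27, and 1.57 without AKR 25 wk replicate 2). Clca3a2 was at 8.14, 7.66 and 8.52 FPKM in SAMP 5 wk and 36.7, 22.4 and 41.3 FPKM in AKR 25 wk (-1.88 ± 0.24, and -2.13 without that library). The coding sequences of Clca3a1 and Clca3a2 were 97.1% identical, and each was 75.1% or 75.2% identical to Clca3b. The sum of Clca3a1 and Clca3a2 was 34.8, 34.8 and 36.3 FPKM in SAMP 5 wk and 45.3, 26.2 and 49.8 FPKM in AKR 25 wk, with overlapping groups, whereas Clca3b did not overlap. The call of Clca3a1 ended when any of the SAMP 5 wk libraries was left out (adjusted p 0.11 to 0.12), and that of Clca3a2 without SAMP 5 wk replicate 2 or 3 or without AKR 25 wk replicate 1 (adjusted p 0.058 to 0.068).

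Capn9, a calpain protease gene of the digestive tract on the goblet cell list, was at 3.30, 3.43 and 2.22 FPKM in SAMP 5 wk and 9.15, 7.92 and 12.8 FPKM in AKR 25 wk, and fell by 1.45 ± 0.24 (adjusted p 0.039 in limma, and 0.041 without AKR 25 wk replicate 2). In SAMP 25 wk it was at 18.3, 13.8 and 11.5 FPKM, so the low values were those of SAMP 5 wk. Cast, which encodes calpastatin, the inhibitor of calpains, fell by 1.09 ± 0.17 and was not called without AKR 25 wk replicate 2 (adjusted p 0.056). The call of Capn9 was lost when any of the other 5 libraries was left out and that of Cast when any of the 6 was, the adjusted p of both reaching 0.17 at most over the alternatives. B3gnt3, which extends the O-glycans of mucins, was at 18.7, 22.1 and 23.5 FPKM in SAMP 5 wk and 9.96, 7.65 and 7.88 FPKM in AKR 25 wk, and rose by 1.24 ± 0.18. It was 1 of 31 glycosylation genes called, and 0 of 31 passed without AKR 25 wk replicate 2, with 7 at an unadjusted p under 0.05 (adjusted p of B3gnt3 0.053, over a range of 0.008 to 0.16). SAMP 5 wk replicate 1 was the single library whose removal left B3gnt3 called.

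Enzymes of lipid, retinol and glutathione metabolism gave several of the firmest calls. Acaa2, the mitochondrial thiolase of fatty acid oxidation, was at 24.7, 22.5 and 22.5 FPKM in SAMP 5 wk and 144, 172 and 121 FPKM in AKR 25 wk. The SAMP 5 wk libraries lay close together and far under AKR 25 wk, with a log2 fold change of -2.59 ± 0.18 and a limma adjusted p of 0.00013 (-2.46 and 0.0002 without AKR 25 wk replicate 2). It was the single called gene of 34 in the list of PPAR, ketogenesis and fatty acid oxidation, whose median was -0.29 and -0.14 without AKR 25 wk replicate 2. The regulator Pparg (-1.51, adjusted p 0.33) and the dehydrogenase gene Acadm (-0.72, adjusted p 0.46) did not pass. Adh1, an alcohol and retinol dehydrogenase, was at 9.49, 10.6 and 8.08 FPKM in SAMP 5 wk and 32.3, 46.3 and 35.1 FPKM in AKR 25 wk, and fell by 1.90 ± 0.20 (adjusted p 0.0027, and -1.75 with 0.0044 without AKR 25 wk replicate 2). Acaa2 and Adh1 were called under each of 21 alternatives. In SAMP 25 wk Acaa2 was at 43.4, 20.7 and 19.2 FPKM and Adh1 at 13.4, 7.05 and 5.34 FPKM, all below AKR 25 wk too.

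The glutathione transferases Gstm2 and Gstm3, neighbours on chromosome 3, ran in opposite directions. Gstm2 was at 39.2, 35.8 and 43.1 FPKM in SAMP 5 wk and 9.30, 10.03 and 12.3 FPKM in AKR 25 wk, and rose by 1.81 ± 0.18 (adjusted p 0.0018 in limma). Gstm3 was at 4.46, 2.43 and 2.63 FPKM in SAMP 5 wk and 23.9, 21.4 and 25.6 FPKM in AKR 25 wk, and fell by 2.59 ± 0.22 (adjusted p 0.00063). Their coding sequences were 85% identical with at most 38 bases in an identical run, and their sum was 43.7, 38.2 and 45.7 FPKM in SAMP 5 wk and 33.15, 31.4 and 37.96 FPKM in AKR 25 wk. Both calls held whichever library was left out, with 1.78 for Gstm2 and -2.66 for Gstm3 without AKR 25 wk replicate 2. Of 72 xenobiotic and glutathione genes 1 rose and 2 fell, beside 0.238% called higher and 0.271% called lower of all genes tested. Without AKR 25 wk replicate 2, 2 rose and 2 fell, with Gsr, the glutathione reductase, added at 76.7, 59.4 and 74.7 FPKM in SAMP 5 wk and 30.1 and 21.4 FPKM in AKR 25 wk. The median of that list was -0.53 with all 6 libraries and -0.14 without AKR 25 wk replicate 2. A further 3 calls were lost without that library: Abcc3, a basolateral exporter of organic anions (-1.29, adjusted p 0.038 and 0.062), Car9, a carbonic anhydrase (-1.41, adjusted p 0.040 and 0.070), and Akr1b3, an aldose reductase (-1.16, adjusted p 0.041 and 0.087). Each was also lost without 4 other libraries, and over all alternatives their adjusted p reached 0.18, 0.23 and 0.58.

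**Figure D4:**
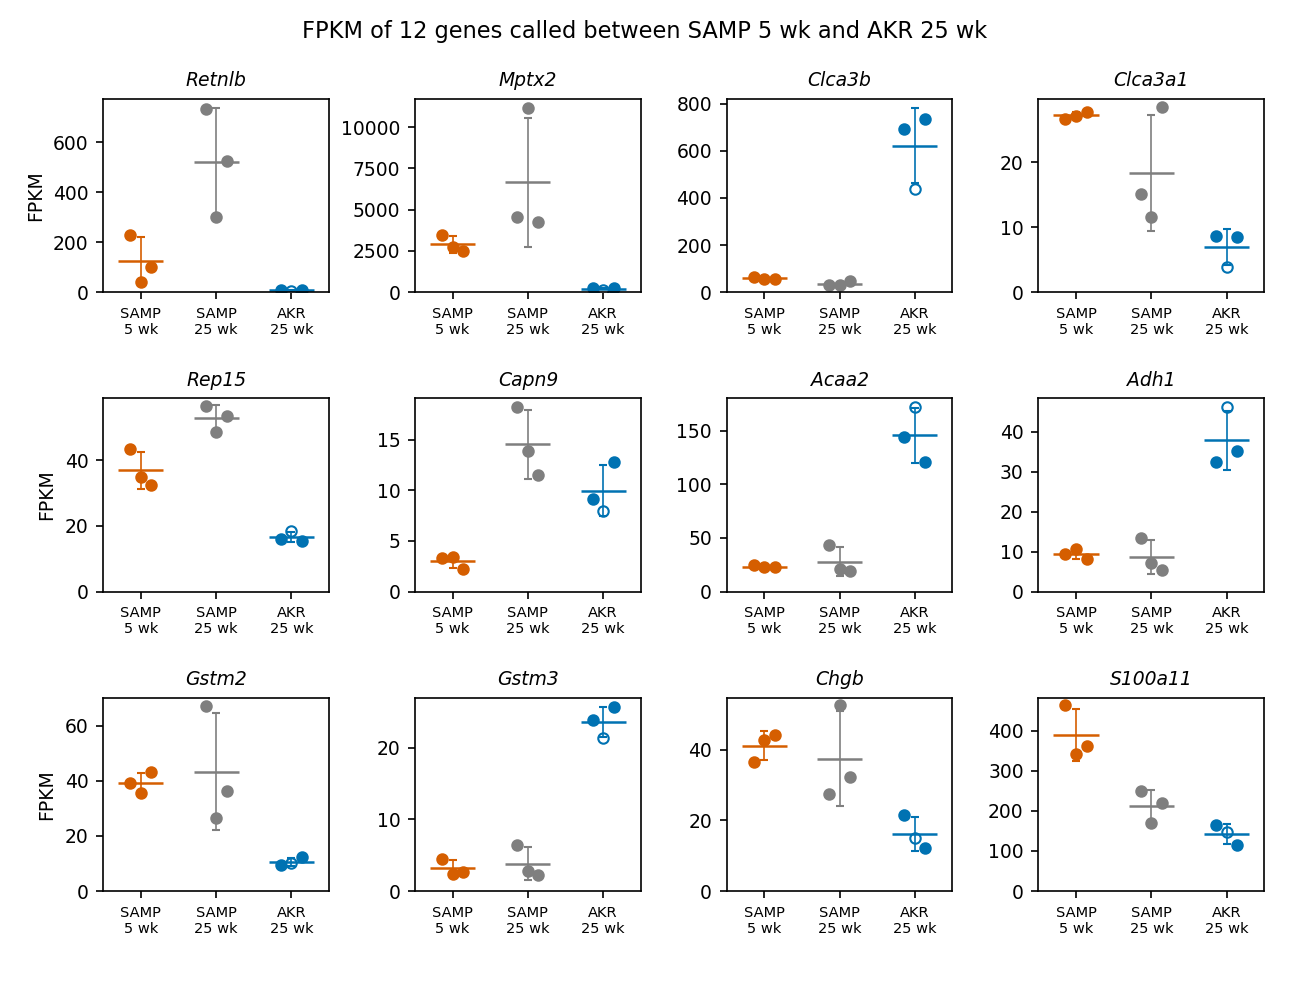
FPKM of 12 called genes in the 3 libraries each of SAMP 5 wk, SAMP 25 wk and AKR 25 wk, with the group mean as a line and the SD as a bar, and AKR 25 wk replicate 2 as an open point. SAMP 5 wk and AKR 25 wk do not overlap in any of the 12, and Capn9 was lower in SAMP 5 wk than in both other groups.

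Enteroendocrine cells secrete gut hormones and store them with granin proteins. The granin gene Chgb was at 36.5, 42.6 and 44.2 FPKM in SAMP 5 wk and 21.4, 14.9 and 12.2 FPKM in AKR 25 wk, and rose by 1.33 ± 0.22 (limma adjusted p 0.043), 1 of 23 tested genes of the list. The call was lost in 12 of the 21 alternatives, including without any single library but AKR 25 wk replicate 1, with an adjusted p of 0.088 without AKR 25 wk replicate 2 and a range of 0.027 to 0.22. Ghrl, the precursor of ghrelin, was at 12.7, 11.4 and 13.6 FPKM in SAMP 5 wk and 5.23, 6.89 and 3.77 FPKM in AKR 25 wk, with separate groups, and passed only without AKR 25 wk replicate 2 (1.13, adjusted p 0.094, and 1.31, adjusted p 0.043). Chga (1.21, adjusted p 0.11) and the glucagon precursor gene Gcg (0.74, adjusted p 0.24) also had separate groups and did not pass. In total 19 of the 23 genes had a fold change above 0, as had 46% of all genes tested, and the median was 0.61 (0.43 without AKR 25 wk replicate 2 and 0.40 without SAMP 5 wk replicate 1). The summed FPKM of the list was 954.8, 456.0 and 418.3 in SAMP 5 wk and 537.6, 388.7 and 487.9 in AKR 25 wk, so the sums overlapped. That overlap rested on Reg4, which is on the goblet cell list too. It was at 532, 144 and 63.4 FPKM in SAMP 5 wk and 271, 132 and 295 FPKM in AKR 25 wk.

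The remaining named calls belonged to no single cell type. S100a11, a calcium-binding protein gene, was at 465, 343 and 363 FPKM in SAMP 5 wk and 165, 147 and 114 FPKM in AKR 25 wk, and rose by 1.45 ± 0.21 (limma adjusted p 0.026, and 0.039 without AKR 25 wk replicate 2). Tmem230, a transmembrane protein gene, was at 4.69, 4.46 and 3.09 FPKM in SAMP 5 wk and 13.9, 18.5 and 18.8 FPKM in AKR 25 wk (-1.84 ± 0.21), and kept its call under each of 21 alternatives. Rsph3b, a radial spoke gene, and Tagap1 lie side by side on chromosome 17 and went in opposite directions. Rsph3b was at 3.51, 2.53 and 1.56 FPKM in SAMP 5 wk and 11.9, 15.5 and 14.7 FPKM in AKR 25 wk (-2.12 ± 0.24), and Tagap1 rose by 1.55 ± 0.24. Without AKR 25 wk replicate 2 the fold changes were -1.77 for Tmem230, -2.05 for Rsph3b and 1.33 for Tagap1. Card6 (1.95 ± 0.29), a caspase recruitment domain gene, rose, and the transcription factor gene Klf12 (-1.93 ± 0.26) and the small nucleolar RNA host gene Gas5 (-1.46 ± 0.23) fell, in both fits. The calls of S100a11 and Card6 were lost without any single library but AKR 25 wk replicate 2, that of Tagap1 without SAMP 5 wk replicate 1, 2 or 3 or AKR 25 wk replicate 1, and those of Klf12 and Gas5 without SAMP 5 wk replicate 2 or 3 or AKR 25 wk replicate 1 or 3, with adjusted p up to 0.19. Wars, the tryptophanyl-tRNA synthetase gene that interferon induces, rose by 1.09 ± 0.17, at 62.0, 59.1 and 53.4 FPKM in SAMP 5 wk and 27.4, 23.2 and 29.9 FPKM in AKR 25 wk. The histone genes H2bc18, H2bc8 and H3c7 rose by 2.08, 1.40 and 1.07, and belong to families of near-identical copies. Without AKR 25 wk replicate 2 the adjusted p of Wars was 0.055, of H2bc18 0.084, of H2bc8 0.053 and of H3c7 0.092. Rhoj, Nxf7, Nr1h5 and Lad1 likewise were called with all 6 libraries only, with adjusted p from 0.036 to 0.047 and, without that library, from 0.053 to 0.083.

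Stem cell genes gave no call. Of 24 crypt-base stem cell and Wnt target genes 0 passed in limma in either fit, with 4 at an unadjusted p under 0.05 (8 without AKR 25 wk replicate 2), and the median was 0.14 (-0.11 without that library). Of the 24, 16 were above 0 and 8 below with all 6 libraries, and 10 above and 14 below without AKR 25 wk replicate 2. Olfm4 was at 1039, 919 and 832 FPKM in SAMP 5 wk and 412, 195 and 513 FPKM in AKR 25 wk. The groups did not overlap, but the log2 fold change of 1.42 ± 0.34 had an adjusted p of 0.20 (1.01 and 0.15 without AKR 25 wk replicate 2). Aqp4 was at 34.5, 31.9 and 36.6 FPKM in SAMP 5 wk and 19.6, 14.2 and 20.0 FPKM in AKR 25 wk (0.91, adjusted p 0.11), and Lgr5 had a log2 fold change of 0.41 with an adjusted p of 0.69. Slc14a1, a urea transporter gene on the list, was at 0.76, 2.11 and 0.82 FPKM in SAMP 5 wk and 4.15, 2.72 and 4.27 FPKM in AKR 25 wk, lower in every SAMP 5 wk library without passing (-1.11, adjusted p 0.29). Sox9, a transcription factor gene of the crypt base, had -0.40 with overlapping groups (adjusted p 0.80), and -0.84 with separate groups without AKR 25 wk replicate 2 (adjusted p 0.12). None of 11 Notch genes passed (median -0.20, and -0.35 without that library), with the ligand gene Dll1 at -0.75 (adjusted p 0.37) and 1 gene at an unadjusted p under 0.05. None of 18 tuft cell genes passed (median 0.07, and -0.09 without that library), with 2 at an unadjusted p under 0.05. Of all genes tested, 8.52% had an unadjusted p under 0.05 (8.48% without AKR 25 wk replicate 2).

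Genes of proliferation and translation gave no call, with medians above 0 that for the ribosomal proteins turned below 0 under 1 rescaling. Of 47 cell cycle genes 0 passed (10 at an unadjusted p under 0.05), 40 had a fold change above 0 and the median was 0.33 (0.19 without AKR 25 wk replicate 2). Among all genes tested, 8.52% had an unadjusted limma p under 0.05 and 46% were above 0. Groups were separate in 14 higher and 3 lower of the 47, beside 6.16% higher and 8.36% lower of all genes tested. Mki67, a marker of cycling cells, was at 119, 111 and 122 FPKM in SAMP 5 wk and 111, 74.8 and 94.4 FPKM in AKR 25 wk, with overlapping groups. Of 53 cytosolic ribosomal protein genes 0 passed (3 at an unadjusted p under 0.05), 52 were above 0 and the median was 0.27 (0.24 without AKR 25 wk replicate 2). Groups were separate in 14 higher and 1 lower of the 53. With FPKM rescaled without ribosomal RNA and named alpha-defensin rows, the median of all genes was -0.32, that of the ribosomal protein genes -0.05 and that of the cell cycle genes 0.03, so both stood about as far above the median of all genes as before. With quantile normalization the median of the ribosomal protein genes was 0.13 and that of all genes 0.01.

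**Figure D5:**
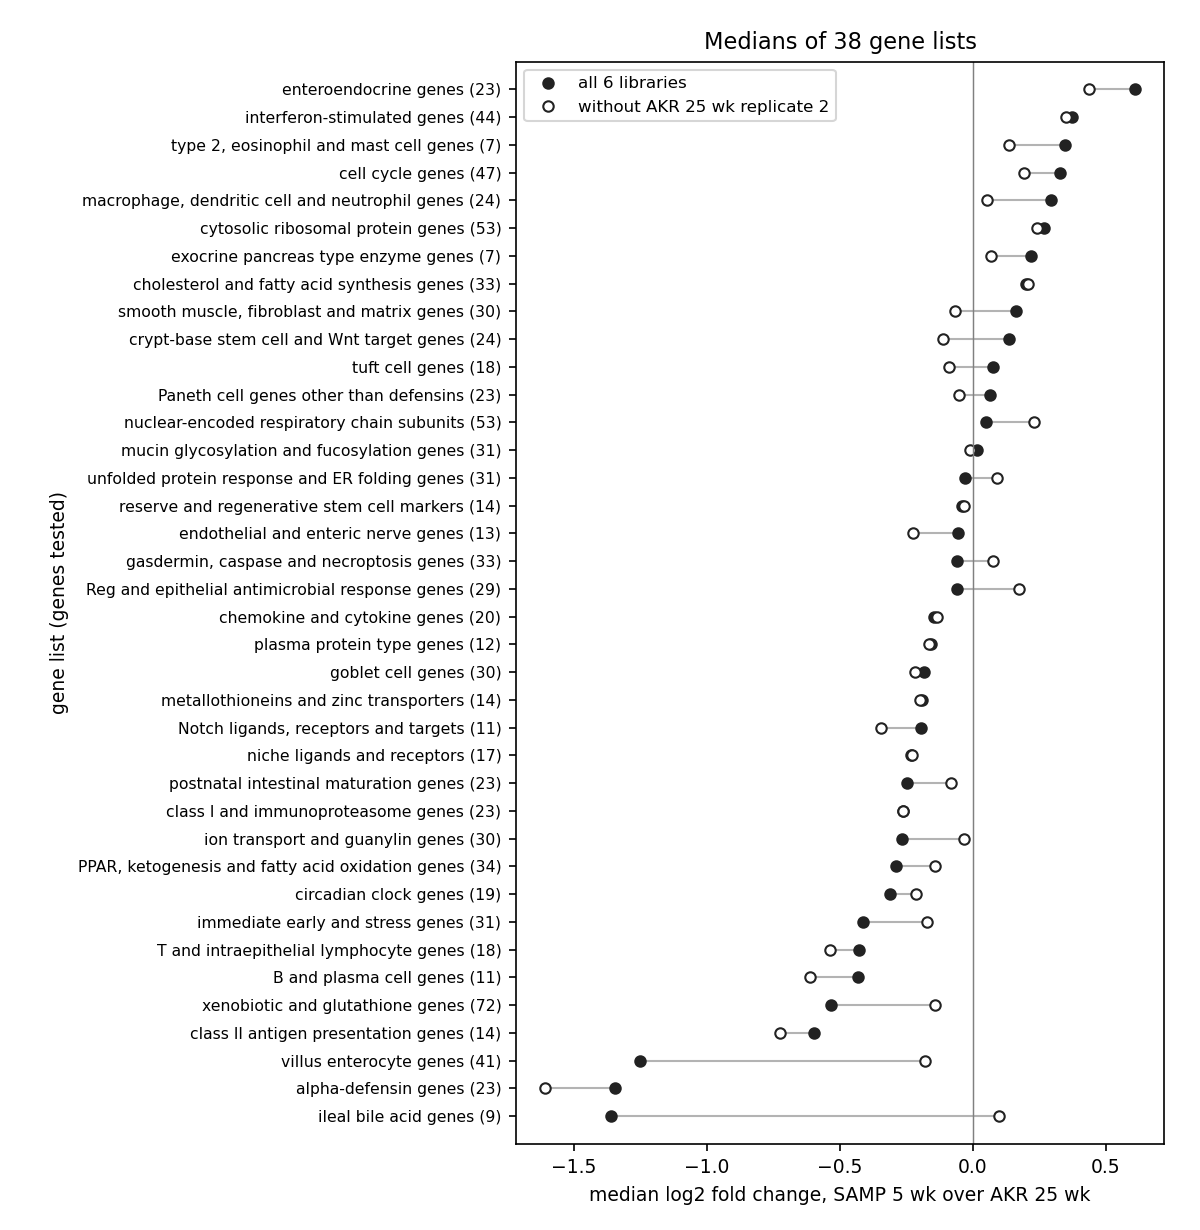
Median log2 fold change of SAMP 5 wk over AKR 25 wk for 38 gene lists, with the number of genes tested in brackets, over all 6 libraries (filled) and without AKR 25 wk replicate 2 (open). The medians of the villus enterocyte and ileal bile acid lists lie at -1.25 and -1.36 with all 6 libraries and at -0.18 and 0.10 without that library.

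No call fell in the lists of T cells, B cells, macrophages, class II antigen presentation or interferon response. At an unadjusted p under 0.05 limma gave 3 of 18 T cell genes and 1 of 11 B cell genes, beside 8.52% of all genes tested. It gave 5 of 24 macrophage, dendritic cell and neutrophil genes there. The medians of these 3 lists were -0.43, -0.43 and 0.29 with all 6 libraries, and -0.54, -0.61 and 0.05 without AKR 25 wk replicate 2. Of 14 class II antigen presentation genes 0 passed, with 6 at an unadjusted p under 0.05, and the median was -0.60 (-0.73 without AKR 25 wk replicate 2). Cd74, the invariant chain, was at 957, 1072 and 772 FPKM in SAMP 5 wk and 2092, 1394 and 1486 FPKM in AKR 25 wk, with separate groups and a log2 fold change of -0.82 (adjusted p 0.37). The T cell gene Cd3e (-1.36, adjusted p 0.39) and the B cell gene Cd79a (-1.62, adjusted p 0.31) also had lower values in every SAMP 5 wk library. Of 44 interferon-stimulated genes 0 passed, with 6 at an unadjusted p under 0.05 and a median of 0.37 (0.35 without AKR 25 wk replicate 2). Smooth muscle, fibroblast and matrix genes summed to 842.6, 793.8 and 444.8 FPKM in SAMP 5 wk and 592.2, 349.6 and 632.1 FPKM in AKR 25 wk, with 0 of 30 called (5 at an unadjusted p under 0.05).

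Villus enterocyte genes were far higher in AKR 25 wk replicate 2 than in any other library. Apoa1, an apolipoprotein that enterocytes secrete, was at 13.1, 2.93 and 0.31 FPKM in SAMP 5 wk and 13.3, 1364 and 5.92 FPKM in AKR 25 wk. Fabp6, which binds bile acids in ileal enterocytes, was at 1261, 83.4 and 78.5 FPKM in SAMP 5 wk and 449, 11909 and 224 FPKM in AKR 25 wk, and both genes had overlapping groups. Of 41 enterocyte genes 40 were below 0 with all 6 libraries and 28 without AKR 25 wk replicate 2, with medians of -1.25 and -0.18. A single member was called in both fits, a gene model with a provisional symbol that is not named here. It was at 36.8, 30.5 and 28.2 FPKM in SAMP 5 wk and 92.5, 94.9 and 116 FPKM in AKR 25 wk. The 9 tested ileal bile acid genes had a median of -1.36 with all 6 libraries and 0.10 without that library, where 0 were called and 4 had an unadjusted p under 0.05. Cracr2a, a calcium sensor gene of store-operated channels, was at 10.2, 15.2 and 10.8 FPKM in SAMP 5 wk and 37.1, 16.6 and 33.3 FPKM in AKR 25 wk, and passed only without AKR 25 wk replicate 2 (-1.14, adjusted p 0.27, and -1.49, adjusted p 0.026). Which part the enterocyte content of that library had in the calls it ended or added was not tested.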

How the data were processed

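RNA was measured in ileal crypt bases captured by laser from SAMP 5 wk and AKR 25 wk mice, 3 libraries each, grouped by strain and age in the labels. The labels mention cultured crypts too, without saying how they relate to the capture. The submitters' processing notes name Trimmomatic, STAR, HTSeq, DESeq2 and GRCm38 with no role or version. Strandedness and read length are not given in the sources used here. Per the file headers, the deposited values are the authors' FPKM, in a table of 18220 rows with NCBI gene numbers. RefSeq's annotation of GRCm38 named 18155 rows by gene number and 10 by transcript, a GENCODE link named 11, and 44 stayed unnamed. GRCm38 is the genome of another strain, and its effect on reads of AKR or SAMP alleles was not tested. Count tests do not apply to FPKM and were left out. Library depth was inferred from how low values step. Of those, 75.8% to 79% lay within 0.2 of a whole read in the 6 libraries, where 40% would by chance, too few to rebuild the counts.

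Genes with a mean of at least 1 FPKM over the 6 libraries, 11788 in all, were tested on log2(FPKM + 1), which understates fold changes of low genes. The test was limma 3.58.1 in R 4.3.3, with 2 group means, a variance trend, 4 residual degrees of freedom and Benjamini-Hochberg adjustment over all genes at 0.05. A gene is called when past that threshold, and errors of fold changes are SE. P-values set the difference of the group means against the spread between these libraries, moderated across genes. Coding sequences came from GENCODE transcripts of GRCm38, coordinates from RefSeq's annotation of GRCm38, and identity is the share of identical positions in a global alignment by Biopython 1.88. Python 3.11.15, pandas 2.3.3 and matplotlib 3.10.9 made tables and figures.

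The comparison, the gene lists and the rule for named genes were chosen with earlier results of these data known. The rule took up to 15 genes in each direction with the largest fold change among those called in both fits, up to 6 called members of each list or 3 uncalled ones, and a set of marker genes. Of the 60 calls, 13 were predicted or unnamed models and were, but for 2 rows, counted and not named. Gene pairs, Il13, Cracr2a, Cd3e, Cd79a and further uncalled genes were chosen after their values were seen. The alternatives were each library left out, all 9 libraries with and without AKR 25 wk replicate 2, pseudocounts of 0.1 and 5, no filter or a minimum of 5 FPKM, other scalings and variance settings, library weights and a threshold of 0.1.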

Additional observations from a re-analysis of the deposited data

How the results depend on the processing

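Between 31 and 54 genes were called when each library was left out in turn, with 15 to 27 higher and 14 to 29 lower, against 60, 28 and 32 with all 6. Without the filter on low values 32 were called, 15 higher and 17 lower. With library weights, which gave AKR 25 wk replicate 2 the lowest weight, 129 were called, 63 higher and 66 lower. At an adjusted p of 0.1, 44 were higher, and with quantile normalization 45. Rescaling without ribosomal RNA and named alpha-defensin rows gave 17 higher and 64 lower, so that 21% of calls were higher, beside 46.7%, with the median of all genes at -0.32. The named alpha-defensin rows taken out summed to more in AKR 25 wk. The 7 unnamed rows with gene numbers close to theirs were kept and summed to more in SAMP 5 wk. In another alternative, chosen after seeing the data, the 8 unnamed rows above 1000 FPKM in any of the 6 libraries were taken out too. There 38.8% of calls were higher, with the median of all genes at -0.07.

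No called gene changed its direction in any alternative. Because the groups of all 60 did not overlap, only the other scalings could have changed a direction. Of the 60, 22 kept their call in all alternatives. Of genes that were not called, the log2 fold change of Lyz1 ran from -0.408 to 0.223 with a library left out, turning to 0.043, 0.223 and 0.001 without SAMP 5 wk replicate 3, AKR 25 wk replicate 3 and AKR 25 wk replicate 1. The log2 fold change of Alpi ran from -2.614 to 0.081 and the log2 fold change of Clca4a from -3.402 to 0.117, both turning positive without AKR 25 wk replicate 2, also in the fit of all 9 libraries. Of 780 list medians under the alternatives, 36 moved by more than the spread between libraries. No paired analysis was possible because the labels give the groups no shared replicate numbers. Depth limits genes near 1 FPKM, and 59 of the 60 calls had a change above 1 on the log2 scale.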
